A study of Mus musculus and Homo sapiens with 12 samples.

Results

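Glycolysis is represented here by 9 enzymes and 1 carrier: HK2, PFKL, ALDOA, TPI1, GAPDH, PGK1, ENO1, PKM, LDHA and the lactate carrier SLC16A1. Rows were taken by gene symbol, ignoring case, and all 10 names were found among the 11513 genes of the human table and among the 10430 genes of the mouse table. RNA sequencing covered 12 libraries of T-ALL (T-cell acute lymphoblastic leukaemia), a cancer of immature T cells. In the human arm, the established cell line KOPTK1 was grown for 72 h with Compound E, an inhibitor of gamma-secretase (gSI; 2 libraries) or with DMSO, its carrier (2 libraries). Gamma-secretase is the protease that releases the active part of NOTCH1. In the mouse arm, NOTCH-delta E tumours had been passed into secondary recipients of strain C57BL/6, which spent 3 weeks on diets labelled with 0, 0.4, 0.8 or 8 g/kg of the essential amino acid valine. The 8 g/kg diet was the control. Leukaemic cells were sorted from the spleen by GFP, and each diet had 1 library named TALL2 and 1 named TALL3, names that the labels do not explain. The treatment protocol describes the 2 middle groups as valine-free diets with valine in the drinking water (0.4 or 0.8 g/L), so the diets are used as an order of valine supply. No age of the mice is given, KOPTK1 is a single line, and no label states that the 2 libraries of a group are separate cultures or animals. The p-values below thus speak of library-to-library spread, which may be technical.

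Glycolysis turns glucose into pyruvate in the cytosol and yields ATP and NADH along the way. HK2 traps glucose as a phosphate, phosphofructokinase (with PFKL as its liver-type subunit) commits it to the pathway, ALDOA and TPI1 split the sugar, GAPDH and PGK1 oxidise it and recover ATP, and ENO1 and PKM make pyruvate. LDHA then reduces pyruvate to lactate, which restores NAD, and SLC16A1 (MCT1) carries lactate and protons across the plasma membrane. Dividing T cells and T-ALL cells run this route at a high rate. The transcription factor MYC, which binds E-boxes, and the hypoxia factor HIF-1, which binds hypoxia response elements, are textbook activators of several of these genes.

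Values are FPKM as deposited, that is, fragments scaled to gene length and library size. Read totals, recovered from ratios of FPKM, were 22939478 to 42245079 in KOPTK1 libraries and 14222895 to 37687253 in mouse libraries. Genes averaging at least 1 FPKM were tested with limma on log2(FPKM + 1), and a gene was called when its p, adjusted by Benjamini-Hochberg over all tested genes, was under 0.05. Every difference below is on that scale, on which changes of weakly expressed genes are shrunk. Markers of the labelled cells were present, with 16 of 20 T-ALL and thymocyte genes listed in human and 18 of 20 in mouse. The summed level of the human markers was 255 and 270 FPKM in gSI libraries and 432 and 417 FPKM in DMSO libraries, and its part in the results was not tested. None of 12 neutrophil and 11 macrophage markers was listed in the human table. In mouse, 11 of 12 neutrophil markers were listed, and their summed level was 550 and 332 FPKM with 0 g/kg, 12.8 and 75.0 with 0.4 g/kg, 14.0 and 12.2 with 0.8 g/kg and 0.897 and 10.2 with 8 g/kg. Macrophage markers (6 of 11 listed) summed to 39.7 and 39.3 FPKM with 0 g/kg and to 6.82 to 19.1 FPKM in the other 6 libraries. Erythroid markers (7 of 15 listed) ran the other way, with 0.902 and 3.33 FPKM with 0 g/kg, 24.4 to 49.1 FPKM with 0.4 and 0.8 g/kg, and 94.9 and 250 FPKM with 8 g/kg. Of 8 B-cell markers CD79A and CD79B were listed in human, with sums of 4.21 and 4.68 FPKM in gSI libraries and 10.4 and 10.2 FPKM in DMSO libraries. In mouse only Cd22 was listed, at 28.7 FPKM in TALL3 with 0 g/kg and at 0.994 to 6.93 FPKM in the other 7 libraries. The libraries with 0 g/kg thus stood apart in neutrophil, macrophage and erythroid markers, and for Cd22 only the TALL3 library did. The part of these markers in the diet results was not tested. The summed mouse T-ALL and thymocyte markers, at 3764 and 3919 FPKM with 0 g/kg, lay within the 3696 to 4691 FPKM of the other 6 libraries.

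The promoter windows of the mouse genes show which members carry the E-box, the 6 letters CACGTG. RefSeq windows of GRCm38.p6, the assembly that mm10 names, were found for all 10 members, with 16 annotated starts among them, and the 250 bases before each start were searched on both strands. An E-box was present in 2 of the 16 windows, 1 of Ldha and 1 of Slc16a1, beside 6.02% of 32851 mouse windows of the same length. The core of a hypoxia response element, ACGTG, was present in 7 of the 16 windows, from 6 members, beside 16.6% of all windows. Each E-box also holds that core, on both strands. Some windows of Aldoa overlap each other, as do some of Eno1, so the 16 windows are not all separate sequence. The same core of Aldoa is counted more than once among the 7. The windows of Ldha and Slc16a1 with an E-box are shown because these genes encode the enzyme that makes lactate and the carrier that moves it, and 1 window of Eno1 is shown because it has neither motif, as is true of the other windows of Eno1. Capitals mark E-boxes and hypoxia cores in the strand of transcription, and each sequence ends at the base before the annotated start.
Ldha, chr7:46845554-46845803, plus strand: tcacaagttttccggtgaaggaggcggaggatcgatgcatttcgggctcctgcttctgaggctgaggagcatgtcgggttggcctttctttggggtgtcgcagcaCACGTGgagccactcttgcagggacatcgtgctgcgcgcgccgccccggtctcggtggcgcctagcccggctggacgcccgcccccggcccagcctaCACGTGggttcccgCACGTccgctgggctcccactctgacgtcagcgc
Slc16a1, chr3:104638414-104638663, plus strand: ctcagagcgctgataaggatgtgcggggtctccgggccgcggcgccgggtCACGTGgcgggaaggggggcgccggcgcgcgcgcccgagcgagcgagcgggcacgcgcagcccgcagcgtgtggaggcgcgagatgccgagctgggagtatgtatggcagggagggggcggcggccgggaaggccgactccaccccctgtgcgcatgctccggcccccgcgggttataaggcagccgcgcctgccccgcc
Eno1, chr4:150236458-150236707, plus strand: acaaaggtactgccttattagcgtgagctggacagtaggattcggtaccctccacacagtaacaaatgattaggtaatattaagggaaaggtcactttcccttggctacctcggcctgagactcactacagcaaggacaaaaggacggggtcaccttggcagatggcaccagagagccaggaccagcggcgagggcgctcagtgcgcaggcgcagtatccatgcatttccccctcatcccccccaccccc
In Ldha the E-boxes ended 140 and 43 bases before the start, and 1 further hypoxia core lay outside them. In Slc16a1 the E-box ended 195 bases before the start. A match is a description of letters, and a window without one says nothing about a factor's binding elsewhere.

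In KOPTK1, 7 of the 9 tested members fell under gSI, SLC16A1 rose, and PFKL was not called. The falls ranged from -0.28 for PKM to -1.09 for LDHA, so the members did not move by one common amount. Over all 6679 tested genes, 53.1% were called, with 30.3% lower and 22.8% higher. At an unadjusted p under 0.05, 8 of the 9 passed, beside 58.3% of all tested genes. The median difference was -0.51 over the 9 tested members and -0.03 over all tested genes. Libraries of the 2 treatments did not overlap for any tested member, with 8 lower and 1 higher under gSI, and 42.4% and 33.9% of all tested genes were separated in these directions. HK2 averaged under 1 FPKM, over a recovered length of 59378 bp that enters its FPKM, and was not among the tested genes. In bulk RNA, fewer cells of a kind and less RNA per cell cannot be told apart.

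At the end of the pathway LDHA and PKM fell and SLC16A1 rose. LDHA (ENSG00000134333) was at 19.9 and 20.3 FPKM with gSI and at 44.0 and 44.0 FPKM with DMSO, so replicates lay close together and the groups far apart. Its difference was -1.09 (SE 0.0813, limma adjusted p = 1.16653e-11). The size of that p depended on the setting, and over all alternatives the limma adjusted p of LDHA ran from 3.527e-57 to 0.000152. SLC16A1 (ENSG00000155380) was at 4.62 and 4.46 FPKM with gSI and at 3.35 and 3.18 FPKM with DMSO. The carrier was higher in both gSI libraries, with a ratio of mean FPKM of 1.39 and a difference of 0.38 (SE 0.0744, limma adjusted p = 0.000119). An antisense gene, SLC16A1-AS1, was listed at 0.0600 and 0.0787 FPKM with gSI and 0.133 and 0.153 FPKM with DMSO. The library kit keeps strand, but how the counting used it is not given in the sources used here, so reads of this gene and of SLC16A1 may not be fully separated. PKM, the last ATP-yielding step, was at 6.18 and 7.02 FPKM with gSI and at 8.49 and 7.90 FPKM with DMSO, a difference of -0.28 (SE 0.0803, limma adjusted p = 0.00508). The gene value joins its M1 and M2 splice forms, which were not analysed here. The call of PKM ended without gSI replicate 1 (-0.20, limma adjusted p = 0.208) and without DMSO replicate 1 (-0.23, limma adjusted p = 0.0591), and over all alternatives its adjusted p ran from 0.00158 to 0.208.

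Among the enzymes between the sugar split and pyruvate, ENO1 and TPI1 fell most. ENO1 was at 42.8 and 44.4 FPKM with gSI and at 82.5 and 85.7 FPKM with DMSO, a difference of -0.93 (SE 0.0836, limma adjusted p = 5.23998e-10). TPI1, which interconverts the triose phosphates, was at 12.5 and 12.5 FPKM with gSI and at 22.4 and 25.1 FPKM with DMSO (-0.87, SE 0.0824, limma adjusted p = 1.42212e-09). Both gSI libraries of each gene lay far below both DMSO libraries. Over all alternatives the limma adjusted p ran from 7.27e-46 to 0.000343 for ENO1 and from 1.034e-25 to 0.000998 for TPI1. GAPDH was at 387 and 405 FPKM with gSI and at 585 and 602 FPKM with DMSO, a difference of -0.58 (SE 0.0864, limma adjusted p = 2.65826e-06). Quantile scaling ended that call (-0.21, limma adjusted p = 0.0856), the highest of its alternatives, of which the lowest was 4.555e-18. ALDOA was at 20.9 and 21.7 FPKM with gSI and at 30.5 and 30.9 FPKM with DMSO (-0.51, SE 0.0811, limma adjusted p = 7.31507e-06). PGK1, the first ATP-yielding enzyme, was at 4.66 and 4.78 FPKM with gSI and at 6.83 and 6.39 FPKM with DMSO, a difference of -0.41 (SE 0.0762, limma adjusted p = 5.44683e-05).

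At the entry of the pathway, HK2 was lower with gSI but under the tested level, and PFKL was not called. HK2 was at 0.331 and 0.312 FPKM with gSI and at 0.718 and 0.750 FPKM with DMSO, and the ratio of the means was 0.438. These levels rest on 601 and 830 recovered reads with gSI and on 918 and 1141 with DMSO. With no filter on low values HK2 passed the threshold, at -0.39 (SE 0.0291, limma adjusted p = 9.373e-05). That scale shrinks a gene under 1 FPKM, and on recovered reads (limma-voom, an alternative added after the data were seen) the difference of HK2 was -1.07 (adjusted p = 6.943e-28). PFKL was at 1.41 and 1.505 FPKM with gSI and at 1.61 and 1.73 FPKM with DMSO. Its difference of -0.12 did not pass (SE 0.0627, 95% interval -0.25 to 0.01, limma adjusted p = 0.110).

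**Figure D1:**
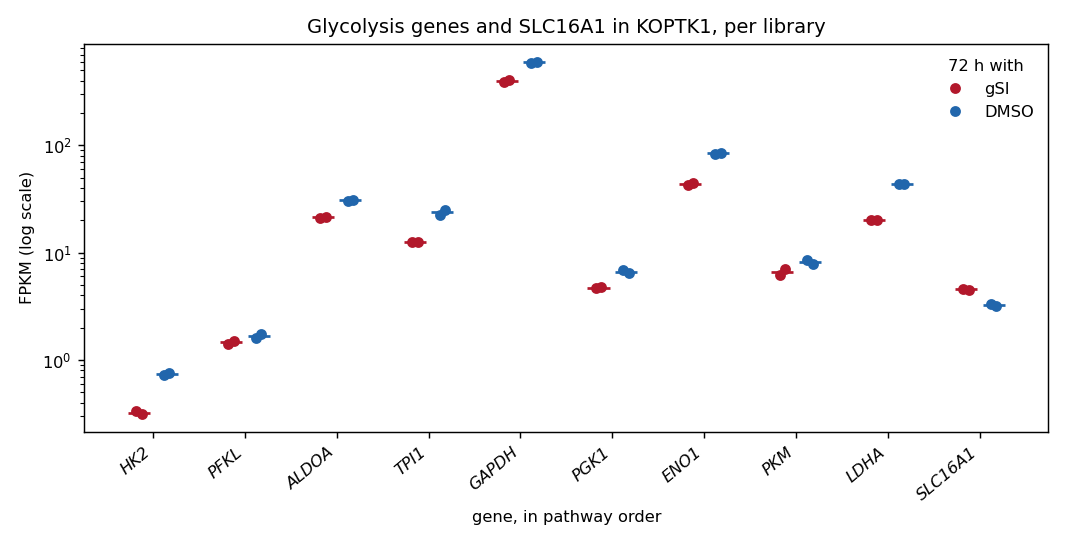
FPKM (log axis) of the 10 members in each KOPTK1 library after 72 h, gSI left of DMSO for each gene, with a dash at the mean of 2 libraries. The points of the 2 treatments are separate for every gene, and SLC16A1 is the member with higher gSI values. FPKM of different human genes are not compared, because the gene lengths behind them are much longer than transcripts.

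The other genes of the route moved in the same mixed way. Of 11 tested glucose-entry, isoenzyme and lactate genes outside the 10 members, 7 fell, 2 rose and 2 were not called. Of all tested genes, 30.3% fell and 22.8% rose. The falls included ALDOC, a second aldolase, at 3.04 and 3.497 FPKM with gSI and 7.08 and 7.38 FPKM with DMSO (-0.95, SE 0.0779). GPI, the enzyme between HK2 and phosphofructokinase, was at 2.43 and 2.59 FPKM with gSI and 4.94 and 4.92 FPKM with DMSO (-0.76, SE 0.0738). LDHB (-0.50, SE 0.0754), the glucose carriers SLC2A3 (-0.46, SE 0.0712) and SLC2A1 (-0.26, SE 0.0572), PGAM1 (-0.44, SE 0.0792) and EMB, an ancillary protein of lactate carriers (-0.22, SE 0.0723), also fell. The 2 that rose were ADPGK, an ADP-dependent glucokinase (0.19, SE 0.0577), and BSG (basigin), the chaperone that brings SLC16A1 to the cell surface. BSG was at 16.0 and 16.7 FPKM with gSI and at 12.5 and 12.3 FPKM with DMSO (0.37, SE 0.0792), so the carrier and its chaperone were both higher. HK1 (-0.10, SE 0.0536) and ENO2 (-0.02, SE 0.0816) were not called. None of the 3 listed regulators of fructose bisphosphate reached the tested level.

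Of 10 tested regulators of these genes, 4 fell and 3 rose, beside 30.3% and 22.8% of all tested genes. MYC was at 4.75 and 4.75 FPKM with gSI and at 17.2 and 16.1 FPKM with DMSO, a difference of -1.62 (SE 0.0781, limma adjusted p = 5.78614e-16). HIF1A, the oxygen-sensitive subunit of HIF-1, was at 4.78 and 4.41 FPKM with gSI and at 6.33 and 5.62 FPKM with DMSO (-0.32, SE 0.0786, limma adjusted p = 0.00130). TXNIP, which restrains glucose uptake, was at 112 and 110 FPKM with gSI and at 49.6 and 59.6 FPKM with DMSO (1.01, SE 0.0908, limma adjusted p = 5.0162e-10). MLX, the partner of the glucose-sensing Mondo factors, fell (-0.42, SE 0.0775), as did PRKAA1, a catalytic subunit of the energy sensor AMPK (-0.39, SE 0.0768). MLXIP (0.19, SE 0.0614) and MAX (0.18, SE 0.0633) rose. Of 7 tested HIF targets outside glycolysis, 5 fell and 1 rose, beside the same shares of all tested genes. DDIT4 (-1.64), VEGFA (-1.29) and BHLHE40 (-1.28) fell most, and NDRG1 rose (0.32).

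In mouse leukaemia cells the members spanned a wide range of levels, which can be compared between genes here because the recovered lengths matched the longest protein-coding transcript for 9 of 10 members (GENCODE M21). Mean FPKM over 8 libraries was highest for Pkm, at 344, followed by Ldha at 316, Aldoa at 156 and Tpi1 at 104. Pkm stood at the 99.4th percentile of listed genes. Slc16a1 averaged 49.2 FPKM, Eno1 33.1, Pfkl 27.7 and Hk2 10.6. The order of Pkm and Ldha varied between libraries, with Pkm higher in 5 of 8 and ranges of 262 to 418 and 273 to 357 FPKM. Eno1 (27.2 to 40.4 FPKM) was above Pfkl (24.2 to 33.8 FPKM) in 7 of 8 libraries. Slc16a1 (38.4 to 62.1 FPKM) was above Eno1 in 8 of 8, although their ranges overlapped. Gapdh averaged 8.44 FPKM (6.81 to 13.1), the 35.9th percentile, and Pgk1 averaged 4.91 FPKM (4.53 to 5.45), the 23.7th percentile. The range of Hk2 (8.54 to 12.9 FPKM) lay within that of Gapdh, with Hk2 higher in 7 of 8 libraries, and those of Aldoa (135 to 166 FPKM) and Tpi1 (83.8 to 115 FPKM) were separate from each other.

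The low values of Gapdh and Pgk1 sit beside a high share of sequence that other genes also hold. Of all 50-base windows of the Gapdh transcript, 82.5% also occur in other annotated genes, 218 genes in number, of which 215 are pseudogenes. The share was 72.2% for Eno1, 68.0% for Pgk1, 34.4% for Pkm, 16.6% for Ldha, 13.5% for Aldoa and 7.51% for Tpi1, and it was 0.0543% for Pfkl. Hk2 and Slc16a1 shared 0 windows. How reads with several matches were treated is not given in the sources used here, and the part of this in the levels was not tested. The levels of Gapdh, Eno1 and Pgk1 are therefore uncertain. Gapdh rests on 160 to 420 recovered reads per library and Pgk1 on 126 to 394, whereas Pkm rests on 9201 to 34261.

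**Figure D2:**
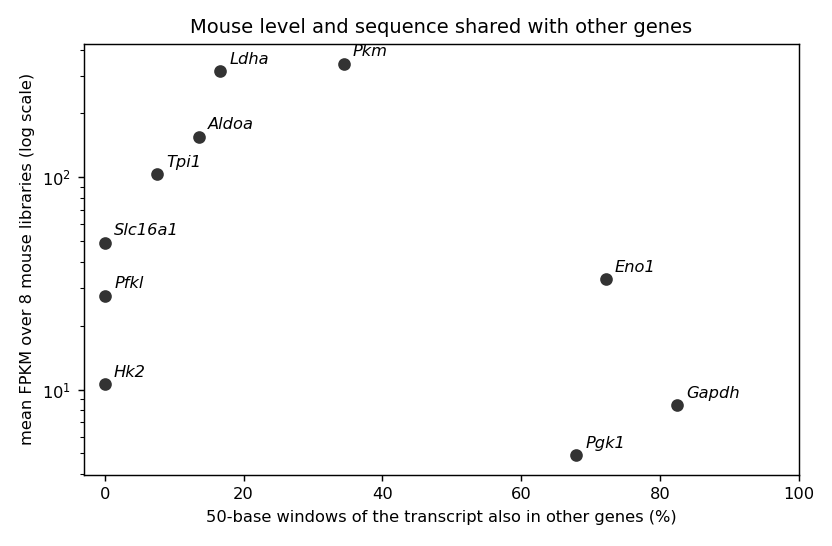
Mean FPKM over 8 mouse libraries (log axis) against the percentage of 50-base windows of each member's transcript that also occur in other genes; each point is 1 gene. Gapdh, Eno1 and Pgk1 lie at 82.5%, 72.2% and 68.0%, and Pkm, the highest member, lies at 34.4%.

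Across the diets none of the 10 members was called in any comparison. The background was the same, since 0% of 9943 tested genes were called for 0, 0.4 or 0.8 g/kg against 8 g/kg, and 0% for the slope over ranked diets. At an unadjusted p under 0.05, 3 members passed with 0 g/kg, 1 with 0.4 g/kg, 2 with 0.8 g/kg and 0 for the slope, beside 10.3%, 10.7%, 4.35% and 12.3% of all tested genes. The smallest limma adjusted p of a member was 0.410, 0.416, 0.998 and 0.436 in these comparisons. Limma-voom on recovered reads called 0 genes as well. Data were also simulated for 0 against 8 g/kg. There, limma recovered 13.4% of 67 genes changed 1.5-fold, 50.8% of 67 changed 2-fold and 89.4% of 66 changed 4-fold. The simulated fit called 108 genes and the fit of the data 0, so the adjusted threshold was easier to pass in the simulation. These shares are thus not the sensitivity of the diet fit. The simulated variance of a gene was the average of its replicate variance over the 4 diets and the median of tested genes. Noise was independent between libraries, so deviations shared by TALL2 or by TALL3 libraries were not simulated. The diet comparisons share the 8 g/kg libraries and are not independent of each other.

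Ldha and Eno1 were lower than in both control libraries in every restricted library. Ldha (ENSMUSG00000063229) was at 315 and 273 FPKM with 0 g/kg, 312 and 325 with 0.4 g/kg, 289 and 308 with 0.8 g/kg and 352 and 357 with 8 g/kg (TALL2 then TALL3, here and below). Eno1 was at 30.7 and 33.1 FPKM with 0 g/kg, 32.8 and 30.9 with 0.4 g/kg, 30.8 and 27.2 with 0.8 g/kg and 40.4 and 38.5 with 8 g/kg. The Eno1 gene (ENSMUSG00000063524) lies on the plus strand of chromosome 4. No order among the restricted diets is visible in either gene. Over all tested genes, 11.4% had all 6 restricted libraries below both control libraries and 4.73% had all above, and the 2 of 10 members are read against these shares. The differences of Ldha were -0.27, -0.15 and -0.25 with 0, 0.4 and 0.8 g/kg (SE 0.0970 each), with limma adjusted p of 0.443, 0.619 and 0.998. Those of Eno1 were -0.30, -0.30 and -0.43 (SE 0.0944 each), with limma adjusted p of 0.410, 0.416 and 0.998.

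Of the other enzymes of the lower pathway, Tpi1 was at 98.1 and 83.8 FPKM with 0 g/kg, 113 and 110 with 0.4 g/kg, 93.1 and 109 with 0.8 g/kg and 107 and 115 with 8 g/kg. Both 0 g/kg libraries and TALL2 with 0.8 g/kg lay below both controls, and the difference with 0 g/kg was -0.29 (95% interval -0.57 to -0.01, limma adjusted p = 0.475). Pkm was at 416 and 262 FPKM with 0 g/kg, 356 and 333 with 0.4 g/kg, 350 and 266 with 0.8 g/kg and 418 and 347 with 8 g/kg. TALL2 was the higher library of Pkm in 4 of 4 diets, with ratios to TALL3 of 1.59, 1.07, 1.31 and 1.205 from 0 to 8 g/kg. Of tested genes, 9.85% were higher in TALL2 in all 4 diets and 13.5% were higher in TALL3 in all 4. The diets of Pkm overlapped throughout, and its difference with 0 g/kg was -0.21 (95% interval -0.81 to 0.39). Aldoa was at 166 and 142 FPKM with 0 g/kg, 160 and 166 with 0.4 g/kg, 153 and 135 with 0.8 g/kg and 165 and 158 with 8 g/kg, so both 0.8 g/kg libraries (-0.17, 95% interval -0.43 to 0.10) and TALL3 with 0 g/kg were below both controls. Gapdh was at 8.13 and 13.1 FPKM with 0 g/kg, 7.47 and 7.18 with 0.4 g/kg, 6.81 and 8.28 with 0.8 g/kg and 7.79 and 8.71 with 8 g/kg. The TALL3 library with 0 g/kg was the highest, and the libraries with 0.4 g/kg lay below both controls by a narrow margin. Pgk1 stayed between 4.53 and 5.45 FPKM in all 8 libraries, and its largest difference was 0.08 (95% interval -0.22 to 0.39), with 0.4 g/kg.

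At the entry of the pathway the fitted differences of Pfkl were positive and those of Hk2 negative, with none called. Pfkl was at 33.8 and 25.2 FPKM with 0 g/kg, 31.3 and 29.2 with 0.4 g/kg, 28.3 and 24.2 with 0.8 g/kg and 24.5 and 25.1 with 8 g/kg. Both libraries with 0 and 0.4 g/kg lay above the controls, by a narrow margin for TALL3 with 0 g/kg, with differences of 0.23 (95% interval -0.15 to 0.60) and 0.27 (95% interval -0.10 to 0.65). Hk2 was at 9.44 and 12.5 FPKM with 0 g/kg, 9.49 and 8.54 with 0.4 g/kg, 9.61 and 11.05 with 0.8 g/kg and 12.9 and 11.1 with 8 g/kg. Its libraries with 0.4 and 0.8 g/kg lay below both controls, narrowly for TALL3 with 0.8 g/kg, and the difference with 0.4 g/kg was -0.37 (95% interval -0.77 to 0.02, limma adjusted p = 0.494). The lactate carrier Slc16a1 was at 46.1 and 44.2 FPKM with 0 g/kg, 54.1 and 48.8 with 0.4 g/kg, 38.4 and 62.1 with 0.8 g/kg and 47.4 and 52.9 with 8 g/kg. The 0 g/kg libraries of Slc16a1 lay below both controls (-0.15, 95% interval -0.67 to 0.38). The 0.8 g/kg libraries of Slc16a1 were its lowest and its highest, so the spread within that diet exceeded any difference between diet means.

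**Figure D3:**
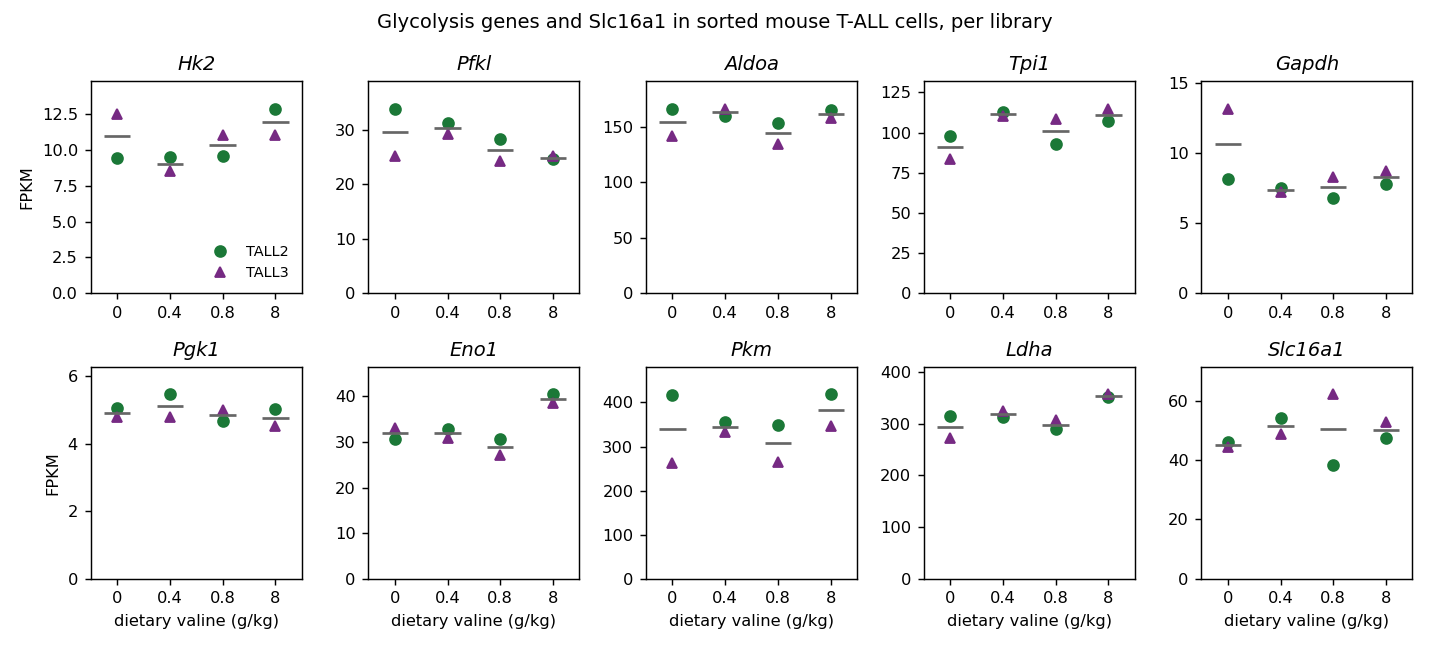
FPKM (linear axes from 0) of the 10 members in sorted mouse T-ALL cells, by dietary valine in g/kg from 0 to 8. Circles are TALL2 libraries, triangles TALL3 libraries and dashes the mean of 2; Ldha and Eno1 are highest with 8 g/kg in both libraries, and Pkm is higher in TALL2 at every diet.

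Groups that did not overlap were counted for each diet. At 0 g/kg, 4 members were lower than both controls and 1 was higher, beside 22.9% and 19.1% of all tested genes. At 0.4 g/kg the counts were also 4 and 1, beside 31.8% and 16.9%, and with 0.8 g/kg they were 4 and 0, beside 22.5% and 10.6%. The median difference of the members was -0.13, -0.07 and -0.15 with 0, 0.4 and 0.8 g/kg, beside -0.01, -0.05 and -0.04 over all tested genes. These medians moved when single libraries were left out: that with 0 g/kg was -0.06 without the TALL2 control and -0.07 without TALL3 with 0 g/kg, and that with 0.4 g/kg was -0.04 without the TALL2 control. That with 0.8 g/kg was -0.07 without its TALL2 library and -0.25 without its TALL3 library. Without Gapdh, Pgk1 and Eno1 the median with 0.4 g/kg was 0.01. KOPTK1 and mouse values come from tables normalised apart and are set side by side without a test. LDHA and ENO1 had differences of -1.09 and -0.93 under gSI, against -0.15 to -0.27 and -0.30 to -0.43 over the restricted diets. Other members were mixed, and their sorting depended on the diet. GAPDH (-0.58 under gSI, 0.30 with 0 g/kg), PGK1 (-0.41, 0.04), PFKL (-0.12, 0.23) and SLC16A1 (0.38, -0.15) had opposite signs. Their 0 g/kg intervals all included 0, and Gapdh in TALL2 with 0 g/kg lay between the controls. ALDOA (-0.51, -0.07), TPI1 (-0.87, -0.29) and PKM (-0.28, -0.21) had the same sign. With 0.4 and 0.8 g/kg GAPDH had the same sign (-0.15, -0.12), and with 0.4 g/kg so had SLC16A1 (0.04). ALDOA and TPI1 had opposite signs with 0.4 g/kg (0.01 each). PGK1 and PFKL had opposite signs and PKM the same sign with every restricted diet.

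**Figure D4:**
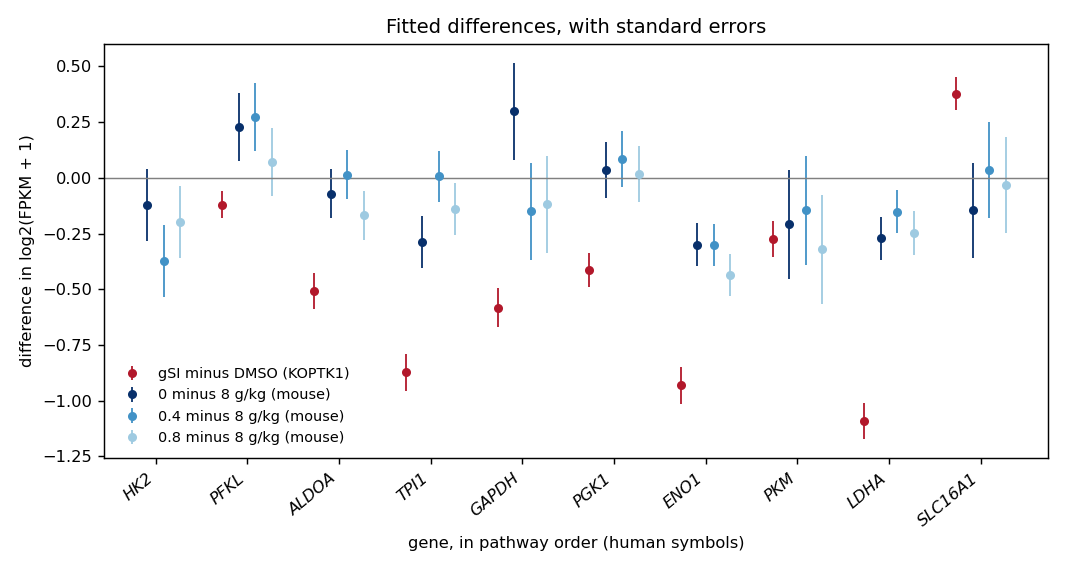
Fitted differences in log2(FPKM + 1) with standard errors (bars) for gSI minus DMSO in KOPTK1 and for 0, 0.4 and 0.8 minus 8 g/kg valine in mouse, by gene. The gSI values reach -1.09 for LDHA and 0.38 for SLC16A1, and the mouse values lie between -0.43 and 0.30; HK2 has no gSI point because it was not tested there.

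The members varied unevenly across the 8 mouse libraries. Of 45 pairs of members, 24 had a positive Pearson correlation of log2(FPKM + 1), given here as a description over libraries that share diets and the TALL2 and TALL3 names. Aldoa and Pkm were most alike (r = 0.88), followed by Tpi1 and Ldha (r = 0.81), whereas Hk2 and Pfkl ran opposite to each other (r = -0.78). Set against the mean of the other 9 members, Ldha had r = 0.70, Eno1 0.58 and Gapdh -0.40, and the rest ran from -0.23 (Pfkl) to 0.44 (Aldoa). The non-members most like the members' mean over these libraries were Ppp2r4 (r = 0.95), Ftsj3 (r = 0.95), Stard7 (r = 0.92), Cluh (r = 0.91) and Thap4 (r = 0.91). They were picked as the highest among all tested non-members, and over 8 libraries such picking alone can give high values.

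None of 21 other tested genes of glycolysis and lactate handling, and none of 64 tested genes of all the pathway lists, was called in a mouse comparison. Myc, with the smallest slope p of the regulators, was at 161 and 112 FPKM with 0 g/kg, 178 and 156 with 0.4 g/kg, 185 and 202 with 0.8 g/kg and 267 and 222 with 8 g/kg. All restricted libraries of Myc lay below both controls, and its slope per step of falling valine was -0.28 (SE 0.0528, limma adjusted p = 0.183). Hif1a was at 60.8 and 54.0 FPKM with 0 g/kg, 56.1 and 64.1 with 0.4 g/kg, 60.6 and 47.8 with 0.8 g/kg and 52.8 and 46.3 with 8 g/kg. Txnip was at 77.6 and 93.8 FPKM with 0 g/kg, 56.6 and 65.6 with 0.4 g/kg, 64.1 and 65.7 with 0.8 g/kg and 70.8 and 93.6 with 8 g/kg, so its lowest values were at the middle diets. Among the enzymes, Pfkp, the platelet-type phosphofructokinase, had a slope of 0.17 (limma adjusted p = 0.302) and Adpgk one of 0.11 (limma adjusted p = 0.326). The slopes of Bpgm (-0.10), Aldoc (-0.18), Fbp1 (-0.42), Pfkfb2 (-0.06), Emb (-0.07) and Bsg (0.02) had limma adjusted p of 0.470 to 0.831.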

How the data were processed

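RNA was sequenced from 4 KOPTK1 and 8 mouse T-ALL libraries. Per the labels' protocols, a directional kit was used on RNA from RNeasy columns. The authors deposited 1 table of FPKM for each species. STAR, edgeR, hg19 and mm10 appear in the submitters' processing notes; the counting tool and gene model are not stated there.

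The members and gene lists were chosen with earlier results of these data known. Each table had its own limma fit (limma 3.58.1, R 4.3.3) of log2(FPKM + 1), two-sided and with a trend of variance on mean, over the genes averaging 1 FPKM or more. The mouse fit held all 4 diets, and the slope used ranks of falling valine. Named other genes in KOPTK1 were, per list, up to 4 called genes with the largest difference. In mouse they were, per list, the 2 with the smallest slope p. MYC, HIF1A and TXNIP were named besides. HK1, ENO2, MAX and MLXIP complete counts and were added after their values were seen. Likeness in mouse was Pearson's r of log2(FPKM + 1) with the mean of the members.

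Reads were recovered from ratios of FPKM values, and the implied gene length came within 0.01 bp of a whole number for 95.8% of genes in the human table and 99.9% in the mouse table. The median length was 29957 bp in human and 3180 bp in mouse, so human levels are compared within a gene only. Fits were tested on simulated data, and for gSI against DMSO 83.6% of 1.5-fold changes were recovered. That simulation called 196 of 6667 tested genes, against 3547 of 6679 in the data, so this share is not the sensitivity there. Alternatives were pseudocounts of 0.1 and 5, quantile and median-of-ratios scaling, no filter, a filter at 5 FPKM and no trend. Others were the replicate number as a block, fits of only the 2 diets compared, limma-voom on recovered reads, and leaving out each library. The slope was also fitted on valine in g/kg instead of ranks and, separately, without both 0.4 g/kg libraries.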

Additional observations from a re-analysis of the deposited data

How the results depend on the processing

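In KOPTK1 the number of called members was 8 and ran from 7 to 9 over the alternatives, including 7 to 8 when 1 library was left out; with 1 library in an arm, it is assumed to vary like the other group. The members' median of -0.51 moved to -0.34 with quantile scaling. It moved to -0.40 with limma-voom on recovered reads and to -0.43 with voom and no filter. Voom scaled by the recovered reads of each library. The divisors of the deposited FPKM were 0.938 and 1.01 times these reads in DMSO libraries and 1.07 and 1.06 times in gSI libraries. The cause of the moves was not tested. Voom placed the median of all genes at 0.09, against -0.03, and at 0.11 with no filter. Voom gave -0.18 for PKM and 0.60 for SLC16A1, and a pseudocount of 5 gave -0.26 for PGK1 and 0.21 for SLC16A1, all still called. A filter at a mean of 5 FPKM left 7 tested members, without SLC16A1 and PFKL. Calls over all genes numbered 3547, but 2418 without gSI replicate 1, 2207 without gSI replicate 2, 1139 with the filter at 5 FPKM, 5374 with no filter and 7312 with voom and no filter. In mouse 0 members were called under every alternative, including those without Gapdh, Pgk1 and Eno1 and with voom and no filter, both added after the data were seen, and the smallest limma adjusted p of a member over them was 0.212; the slope called 2 of all genes when TALL3 with 0.8 g/kg was left out and 1 when TALL2 with 0.4 g/kg was left out. The mouse medians moved too: with 0.4 g/kg to -0.15 with the filter at 5 FPKM and -0.01 with median-of-ratios scaling, and the slope's from -0.04 to -0.0004 without the TALL2 control and -0.02 without TALL3 with 0 g/kg. The median slope per 8 g/kg less valine, another unit, was -0.11. With the replicate number as a block, 8 members (3705 genes) were called in KOPTK1 and 0 in mouse. Deviations of same-numbered libraries correlated at 0.258 in KOPTK1. In mouse they correlated at 0.74 between 8 and 0.8 g/kg, 0.57 between 8 and 0 g/kg and 0.43 between 0.4 and 0 g/kg. The values were 0.36 between 0.8 and 0 g/kg, 0.06 between 8 and 0.4 g/kg and -0.17 between 0.8 and 0.4 g/kg. The main fits did not model deviations shared by same-numbered libraries, and the fits with the block did. With 2 libraries per group, most simulated 1.5-fold changes between 0 and 8 g/kg were missed, and the other diets were not simulated.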

Other observations

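Routes that branch from glycolysis changed unevenly in KOPTK1. Of 8 tested pentose phosphate genes, 4 fell and 1 rose, beside 30.3% and 22.8% of all tested genes. TKT (transketolase) was at 8.62 and 9.002 FPKM with gSI and at 16.1 and 16.1 FPKM with DMSO (-0.80, SE 0.0785, limma adjusted p = 2.82332e-09), and RPE (-0.41) and TALDO1 (-0.30) also fell. Of 8 tested genes of pyruvate entry into mitochondria, MPC2, a subunit of the pyruvate carrier (-0.28), and DLAT, of pyruvate dehydrogenase (-0.22), fell and 6 were not called.

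In mouse, Stc2 had the smallest slope p among HIF targets outside glycolysis, at 2.98 and 6.82 FPKM with 0 g/kg, 1.83 and 0.302 with 0.4 g/kg, 0.319 and 0.349 with 0.8 g/kg and 0.0577 and 0.0152 with 8 g/kg (slope 0.78 per step, limma adjusted p = 0.187). The slopes of Mxi1 (-0.20), Pdk3 (0.07), Pdha1 (-0.09), Taldo1 (0.09), Pgls (-0.10) and Arnt (-0.07) had limma adjusted p of 0.317 to 0.505. Ldhb, the other main lactate dehydrogenase subunit, was at 32.0 and 51.8 FPKM with 0 g/kg, 25.5 and 3.91 with 0.4 g/kg, 17.3 and 56.6 with 0.8 g/kg and 15.5 and 54.0 with 8 g/kg. TALL3 was the higher Ldhb library in 3 of 4 diets, and the TALL3 library with 0.4 g/kg was the lowest of all 8. Ldhb was chosen after its values were seen.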
